A study of Homo sapiens with 6 samples.

Results

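The brush border and absorptive colonocyte genes are 43 genes chosen by name and known role, with no expression threshold, out of the 63241 genes listed for HT−29 cells. They fall into 11 genes of microvillus structure, 5 brush border hydrolases, 16 genes of ion and water transport and 11 other differentiation genes, and all 43 were found once each. HT−29 is a human colorectal adenocarcinoma line of wild-type genotype by its labels, which call the cell type enterocyte. RNA was sequenced in 3 libraries of control cells given buffer and 3 of cells given 0.5 μM Amuc_0904, both for 72 h. Amuc_0904 (group A904 in the labels) is an outer membrane protein of *Akkermansia muciniphila*. The paper isolated total RNA and does not state how the libraries were made from it. Whether the libraries of a group were separate cultures is not stated, so the tests below measure only the spread between these libraries. Values are TPM, transcript levels scaled by transcript length and by library total, which can therefore be set side by side between genes. No counts are given, so depth and counting error are unknown.
Amuc_0904 replicate 1 stood apart from replicates 2 and 3, with −4.79 on the first principal component against 20.4 and 22.8, while the controls lay between −13.04 and −12.4. Transcripts of the mitochondrial genome took 12.8% to 13.5% of TPM in the controls, and with Amuc_0904 12.95% in replicate 1, 10.6% in replicate 2 and 11.1% in replicate 3. Members whose values moved with that library are given with and without it below.

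The brush border is the lawn of microvilli on the apical face of absorptive intestinal cells. Each microvillus is a bundle of actin filaments held together by villin, espin and plastin, tied to the membrane by ezrin and class I myosins, and joined to its neighbors by protocadherin links anchored on USH1C and MYO7B. The membrane carries hydrolases that finish digestion, and colonocytes use apical exchangers, carbonic anhydrases and basolateral pumps to absorb salt and water, while crypt cells secrete chloride through CFTR fed by the basolateral cotransporter SLC12A2.

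HT−29 cells expressed most genes of the microvillus scaffold, except *MYO1A* and *CDHR2*, and the general transport genes. They had little or no transcript of several genes that define mature enterocytes and surface colonocytes, such as *SI*, *ALPI*, *LCT* and *SLC26A3*. The hydrolase *DPP4* was expressed in every library. Of the 43 genes, 5 were listed at 0 in all 6 libraries. These were *AQP8*, a colonic water channel, *CA1*, a carbonic anhydrase of surface colonocytes, *FABP2*, the intestinal fatty acid binding protein, *SLC5A8*, a sodium-coupled transporter of short-chain fatty acids, and *TMIGD1*, an adhesion protein of the brush border. A further 11 did not reach 1 TPM in at least 3 libraries, the level needed for a test, and 27 did. Of these 27, *ATP1B1*, *EPS8* and *FABP1* had means of 132.1 TPM or more, 15 others had means of 10 TPM or more, and 9 were lower. The highest was *ATP1B1*, the beta subunit of the sodium pump, with 517.5 to 562.4 TPM in the controls and 538.7 to 603.4 TPM with Amuc_0904.
Among the 5 hydrolases, 3 stayed under the level for a test, as did 7 of the 11 other differentiation genes. *SI*, the sucrase-isomaltase, did not exceed 0.17 TPM in any library, *ALPI*, the intestinal alkaline phosphatase, did not exceed 0.03 TPM, and *LCT*, the lactase, did not exceed 0.01 TPM. *SLC26A3*, the apical chloride-bicarbonate exchanger of colonocytes, was listed above 0 in 1 library, at 0.04 TPM, and *MS4A12*, a colonocyte membrane protein, in 1 library, at 0.06 TPM. *GUCY2C*, the receptor of guanylin and uroguanylin, lay between 0.01 and 0.05 TPM. Checked against the label enterocyte, *VIL1*, *FABP1* and *DPP4* were expressed, while these defining hydrolases were at or near 0. Of 25 other absorptive lineage genes outside the 43, 15 reached the level for a test and 10 did not. Among the 15 were *KRT20*, at 123.7 to 151.4 TPM, and *LGALS4*, at 777.4 to 870.4 TPM.
The protocadherin pair that links microvilli was unequal. *CDHR5* had 11.8 to 20.1 TPM in the controls, and its partner *CDHR2* had 0.02 to 0.11 TPM. The myosins differed likewise, with *MYO1D* at 33.9 to 37.1 TPM in the controls and *MYO1A*, the brush border myosin of mature enterocytes, at 0.13 to 0.41 TPM.
The 43 genes together held 1603 to 1675 TPM in the controls, and 1772, 1614 and 1601 TPM in replicates 1, 2 and 3 of Amuc_0904. Their summed level thus lay above the control range in replicate 1, within it in replicate 2 and marginally below it in replicate 3.

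**Figure D1:**
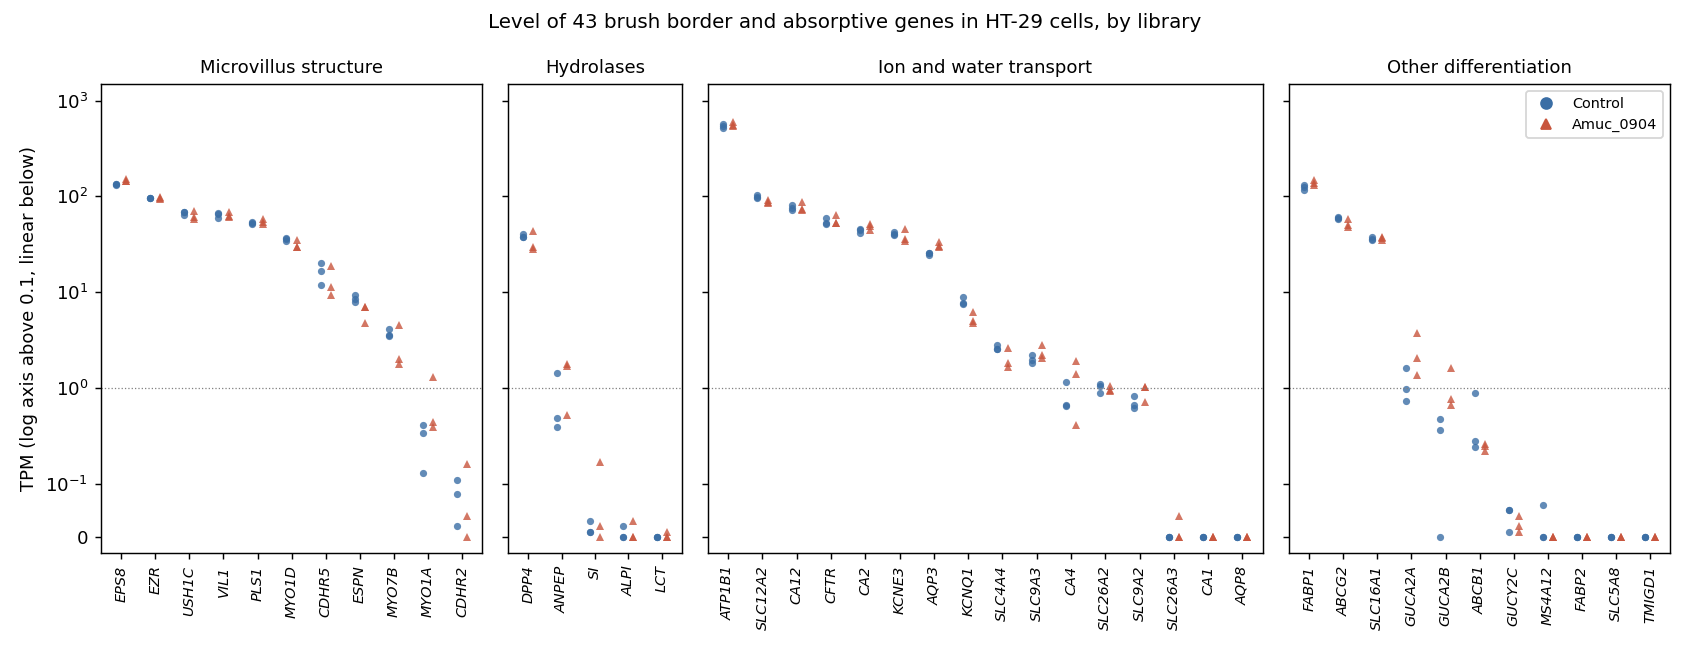
TPM of the 43 genes in 4 groups, ordered by mean, with circles for control and triangles for Amuc_0904 libraries, on an axis that is logarithmic above 0.1 TPM and linear below; the dotted line marks 1 TPM. Of the 5 hydrolases, *SI*, *ALPI* and *LCT* sit near 0, while *DPP4* lies at 28.4 TPM or above in every library.

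The sequences before the transcription start were compared between members above and under the level for a test, since promoter composition was not used to choose the genes. RefSeq promoters on GRCh38.p14 matched 32 of the 43 symbols, 9 of them with several start sites, whose values were averaged. In the 250 bases before the start, the 19 matched genes that reached the level for a test had a median GC content of 66.0% and a median of 17.5 CpG dinucleotides, and the 13 that did not had 47.2% and 3. Over all 35116 promoters of this length the medians were 58.0% and 11. These promoters were not split by the level of their genes. Whether the gap is particular to the members was therefore not tested. The ranges overlapped, from 45.5% to 83.2% in the first set and from 31.2% to 79.6% in the second. *FABP1*, at 132.1 TPM on average, had a GC content of 48.0%, and *SLC9A2*, a sodium-hydrogen exchanger at 0.62 to 1.03 TPM, had 79.6%.
The start differed between annotations. In RefSeq it lay 54 bases inside the GENCODE gene for *FABP1*, 40 bases for *AQP3* and 252 bases for *FABP2*, and for *SLC12A2* both starts were the same. Of the 23 matched members with 1 RefSeq start, the window reached into the GENCODE gene for 16 and lay wholly inside it for 7, so the composition given above covers transcribed bases in part.
Shown here are the bases of this window that lie before both starts, for *FABP1*, one of the highest members, and for *AQP3* and *SLC12A2*, which had the smallest p in each direction among members with a matched promoter. They lie at chr2:88128117-88128312 (minus strand, 196 bases), chr9:33447634-33447843 (minus strand, 210 bases) and chr5:128083516-128083765 (plus strand, 250 bases). Capitals mark matches on either strand to 4 short motifs. The TATA box was searched as TATAAA and the GC box as GGGCGG. An HNF4-type site was searched as CAAAGTCC, and a CDX-type site as TTTATGG.
FABP1: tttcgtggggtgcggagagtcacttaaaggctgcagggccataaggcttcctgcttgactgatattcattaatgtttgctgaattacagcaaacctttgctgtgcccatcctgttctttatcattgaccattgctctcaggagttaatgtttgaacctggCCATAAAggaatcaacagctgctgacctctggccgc
AQP3: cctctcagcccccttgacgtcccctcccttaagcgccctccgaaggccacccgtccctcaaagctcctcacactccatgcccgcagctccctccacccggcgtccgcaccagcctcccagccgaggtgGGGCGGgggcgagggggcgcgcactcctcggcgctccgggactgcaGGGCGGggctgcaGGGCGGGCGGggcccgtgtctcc
SLC12A2: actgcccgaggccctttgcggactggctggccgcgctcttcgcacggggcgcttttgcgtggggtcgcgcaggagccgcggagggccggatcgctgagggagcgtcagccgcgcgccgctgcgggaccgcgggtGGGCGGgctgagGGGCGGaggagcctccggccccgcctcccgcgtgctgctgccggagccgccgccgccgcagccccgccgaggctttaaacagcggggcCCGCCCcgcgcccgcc
In the whole windows, *FABP1* and *AQP3* each held a TATAAA, which began 31 and 32 bases before the RefSeq start and is not in the part shown. *FABP1* also held the CDX-type letters on the opposite strand. *AQP3* and *SLC12A2* held 4 and 3 GC boxes, of which those of *AQP3* at 63 and 59 bases before the RefSeq start overlap each other. The window of *FABP2*, which lies wholly inside the GENCODE gene, held none of the 4 motifs. TATAAA occurred in 12.5% of the 48 promoters of the matched members and in 10.7% of all promoters, and GGGCGG in 39.6% and 42.6%. CAAAGTCC occurred in 6.25% of the members' promoters and 1.02% of all, from *ALPI*, *MYO1A* and *MYO7B*. TTTATGG occurred in 12.5% and 2.3%, from 6 genes. Of these, *CA12*, *FABP1*, *PLS1* and *SLC4A4* reached the level for a test, and *MS4A12* and *TMIGD1* did not. All motif hits are matches of letters, and several promoters belong to the same gene.

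Whether Amuc_0904 changed these genes was tested with limma on log2(TPM + 1) over the 14333 genes that had at least 1 TPM in at least 3 libraries. All log2 ratios and log2 fold changes given here are differences of mean log2(TPM + 1). For low genes they understate the ratio of the TPM values beside them. Of the 27 members tested, none passed an adjusted p of 0.05 (0 rose, 0 fell), and the smallest adjusted p was 0.206. Over all tested genes 0.0698% rose and 0.167% fell, or 0.237% in either direction. At 0.05 before adjustment, 3 members were higher and 4 lower after Amuc_0904, 25.9% of those tested, against 15.8% of all genes (9.95% higher and 5.87% lower). The 3 Amuc_0904 libraries lay above the 3 controls for 2 members and below them for 4, together 22.2%, against 21% of all genes (13.4% above and 7.59% below). The median log2 fold change of the 27 was 0.0064, with 15 genes higher and 12 lower, and that of all tested genes was 0.0015. Without Amuc_0904 replicate 1 these medians were −0.043 and −0.028. In bulk RNA, fewer cells that express a gene and less RNA per cell cannot be told apart.

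**Figure D2:**
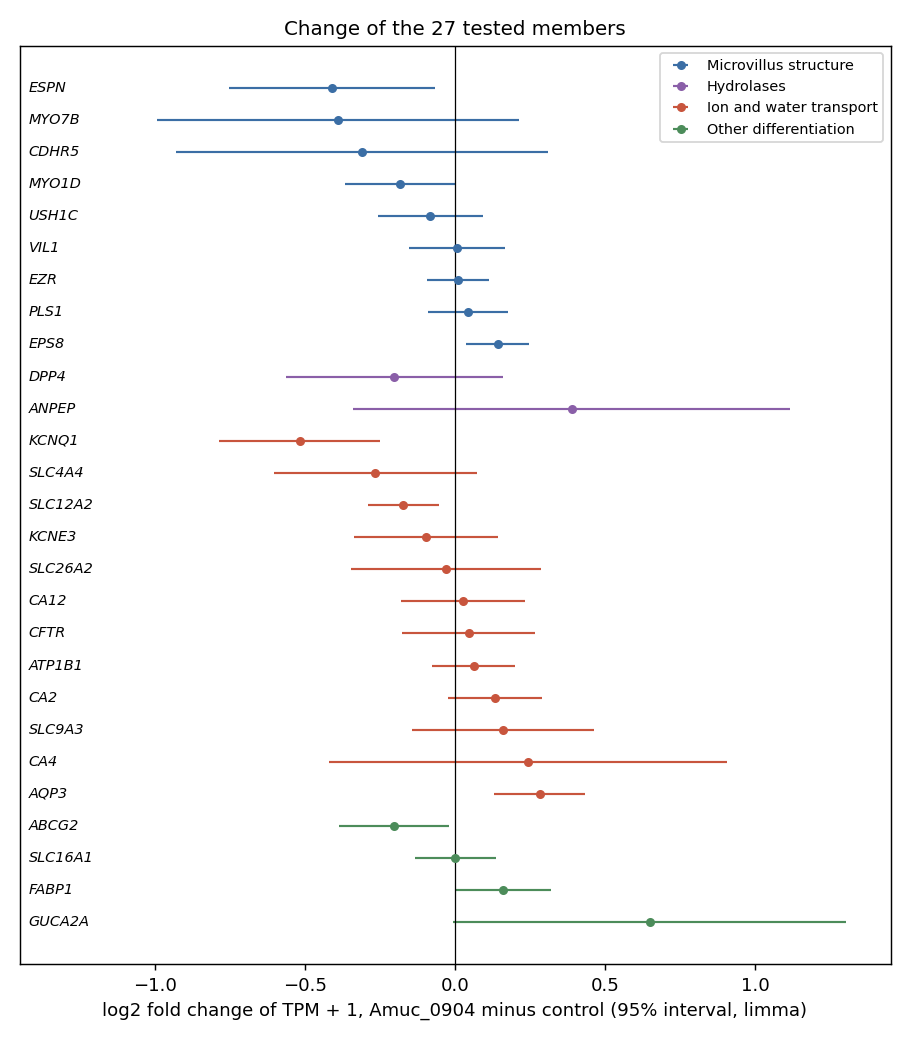
Log2 fold change of TPM + 1 with its 95% interval from limma for the 27 tested members, by group. Most intervals span 0; *KCNQ1*, at −0.52, and *AQP3*, at 0.28, lie farthest from 0 relative to their error.

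Among the genes of microvillus structure, *EPS8* was higher and *ESPN* lower in every Amuc_0904 library, and *MYO7B* and *MYO1D* were lower in replicates 2 and 3. *EPS8*, an actin capping and bundling protein encoded on chromosome 12 from 15620158 to 15882329 (GRCh38, as all gene positions here), had the highest level of the group. Its TPM was 130.1, 134.5 and 134.4 in the controls and 146.0, 143.6 and 151.2 with Amuc_0904. Every treated library was above every control, although the step was small (133.0 ± 2.49 against 146.9 ± 3.92, SD, n = 3; log2 ratio of 0.14 with a standard error of 0.045, limma adjusted p = 0.249). *ESPN*, or espin, which bundles actin, lies on chromosome 1 from 6424776 to 6461367. Its TPM was 8.41, 9.32 and 7.85 in the controls and 7.05, 6.94 and 4.75 with Amuc_0904, so that the groups again did not overlap (log2 ratio of −0.41 with a standard error of 0.15, limma adjusted p = 0.273). *TNFRSF25*, on the opposite strand, overlaps *ESPN* and had 5.56 to 8.88 TPM, and reads of both may have been mixed if strand was not used in counting.
*MYO7B*, the myosin that anchors the links between microvilli, depended on the library. Its controls had 3.56, 3.46 and 4.12 TPM, and Amuc_0904 replicate 1 had 4.56 TPM, while replicates 2 and 3 had 1.99 and 1.79 TPM (log2 ratio of −0.39 with a standard error of 0.26, limma adjusted p = 0.491). *CDHR5*, the protocadherin of those links, had 20.1, 16.6 and 11.8 TPM in the controls and 18.5, 9.31 and 11.4 TPM with Amuc_0904, and its groups overlapped (adjusted p = 0.594). The motor *MYO1D* had 37.1, 36.1 and 33.9 TPM in the controls and 34.9, 29.5 and 29.8 TPM with Amuc_0904 (log2 fold change −0.18, adjusted p = 0.320). Replicate 1 of *MYO1D* lay within the control range, and replicates 2 and 3 lay below it.
The structural core differed by less than the spread between libraries. *VIL1*, or villin, had 59.0 to 66.4 TPM in the controls and 61.0 to 68.3 TPM with Amuc_0904, with a log2 fold change of 0.0064 and a 95% interval from −0.15 to 0.17. *EZR*, or ezrin, on chromosome 6 from 158765741 to 158819412, had 95.5, 96.0 and 96.9 TPM in the controls and 99.4, 96.2 and 94.8 TPM with Amuc_0904 (log2 fold change 0.010, 95% interval −0.093 to 0.11). *PLS1*, the plastin of the core bundle, had 53.3, 51.01 and 53.0 TPM in the controls and 57.4, 53.4 and 51.6 TPM with Amuc_0904 (adjusted p = 0.736). *USH1C*, the scaffold of the intermicrovillar links, had 63.4, 68.3 and 68.0 TPM in the controls, and 69.6 TPM in replicate 1 but 61.0 and 58.3 TPM in replicates 2 and 3 of Amuc_0904 (adjusted p = 0.624). *VIL1* and *EZR* took a negative sign in some alternatives, without transcripts of the mitochondrial genome for example (−0.018 and −0.015). Of the 9 tested genes of the group, 4 had higher and 5 lower means. At 0.05 before adjustment 1 was higher and 1 lower, 22.2% against 15.8% of all genes. The median log2 fold change was −0.08, or −0.15 without Amuc_0904 replicate 1. *MYO1A* stayed under the level for a test, with 0.34, 0.41 and 0.13 TPM in the controls and 0.44, 0.39 and 1.31 TPM with Amuc_0904.

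Only *DPP4* and *ANPEP* among the 5 hydrolases reached the level for a test, and they went different ways. *DPP4*, the dipeptidyl peptidase that also inactivates incretins, lies on chromosome 2 from 161992241 to 162074542. Its TPM was 37.5, 40.02 and 37.2 in the controls. With Amuc_0904 it was 43.6 in replicate 1 and 29.2 and 28.4 in replicates 2 and 3, on opposite sides of the control range (38.2 ± 1.55 against 33.7 ± 8.54; log2 ratio of −0.20 with a standard error of 0.15, limma adjusted p = 0.552). Without Amuc_0904 replicate 1, the log2 fold change was −0.40 and the adjusted p 0.0055. *ANPEP*, the aminopeptidase N, had 1.43, 0.39 and 0.49 TPM in the controls and 0.52, 1.77 and 1.68 TPM with Amuc_0904, and its groups overlapped. Its log2 ratio of TPM + 1 was 0.39 with a standard error of 0.31 (limma adjusted p = 0.571). The median log2 fold change of the tested hydrolases, 0.09, rests on 2 genes.

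Transport genes held the members that differed most relative to their error, and these went both ways. *KCNQ1*, a potassium channel pore that with *KCNE3* recycles potassium across the basolateral membrane, lies on chromosome 11 from 2444684 to 2849110. Its TPM was 7.47, 8.89 and 7.68 in the controls and 6.14, 4.75 and 5.04 with Amuc_0904. All treated libraries were below all controls, with the lowest values in replicates 2 and 3 (8.01 ± 0.766 against 5.31 ± 0.733; log2 ratio of −0.52 with a standard error of 0.11, limma adjusted p = 0.206). Its partner subunit *KCNE3* had 39.7, 40.1 and 42.6 TPM in the controls and 45.04, 35.7 and 34.4 TPM with Amuc_0904. Replicate 1 of *KCNE3* was above the control range and replicates 2 and 3 were below it (log2 fold change −0.10, adjusted p = 0.679).
*SLC12A2*, the sodium-potassium-chloride cotransporter that loads chloride for secretion, lies on chromosome 5 from 128083766 to 128189688. Its TPM was 95.9, 103.0 and 98.3 in the controls and 90.9, 87.2 and 85.4 with Amuc_0904. The groups did not overlap, although the lower level amounted to a log2 fold change of only −0.17 (99.1 ± 3.61 against 87.8 ± 2.79; standard error 0.051, limma adjusted p = 0.238). *CFTR*, the apical chloride channel, had 51.2 to 59.5 TPM in the controls and 52.4 to 63.8 TPM with Amuc_0904, with a log2 fold change of 0.05 and a 95% interval from −0.18 to 0.27. For *CFTR* the sign became negative without Amuc_0904 replicate 1 (−0.046).
*AQP3*, a basolateral channel for water and glycerol on chromosome 9 from 33441154 to 33447633, was higher. Its TPM was 25.9, 25.6 and 24.4 in the controls and 30.3, 33.3 and 29.4 with Amuc_0904. Each treated library was above each control (25.3 ± 0.760 against 31.0 ± 2.02; log2 ratio of 0.28 with a standard error of 0.065, limma adjusted p = 0.214). *CA2*, a cytosolic carbonic anhydrase that supplies bicarbonate and protons for exchange, had 44.8, 41.4 and 45.2 TPM in the controls and 48.9, 50.9 and 44.7 TPM with Amuc_0904, and replicate 3 lay among the controls (log2 fold change 0.13, adjusted p = 0.382). *ATP1B1*, on chromosome 1 from 169105697 to 169132722, had 542.9, 562.4 and 517.5 TPM in the controls and 603.4, 538.7 and 553.5 TPM with Amuc_0904 (log2 fold change 0.06, 95% interval −0.08 to 0.20). Only replicate 1 of *ATP1B1* exceeded the control range.
The bicarbonate and proton transporters were low. *SLC4A4*, the basolateral sodium bicarbonate cotransporter, had 2.53, 2.77 and 2.55 TPM in the controls and 2.62, 1.67 and 1.81 TPM with Amuc_0904 (adjusted p = 0.411). *SLC9A3*, the apical sodium-hydrogen exchanger of absorption, had 1.80 to 2.21 TPM in the controls and 2.07 to 2.77 TPM with Amuc_0904 (adjusted p = 0.577), and the overlapping genes *EXOC3*, *PP7080* and *SLC9A3-AS1* were far higher, at 9.04 TPM or more. *SLC26A2*, a sulfate transporter, had 0.88 to 1.1 TPM in the controls and 0.92 to 1.04 TPM with Amuc_0904 (adjusted p = 0.933). *CA4*, a membrane carbonic anhydrase, had 1.16, 0.66 and 0.65 TPM in the controls and 0.41, 1.91 and 1.39 TPM with Amuc_0904, with replicate 1 below and replicates 2 and 3 above the control range (adjusted p = 0.707). *CA12*, another membrane carbonic anhydrase, had 72.5 to 81.3 TPM in the controls and 71.5 to 88.0 TPM with Amuc_0904 (adjusted p = 0.911). *CA12* had a negative sign without Amuc_0904 replicate 1 (−0.063). Of the 12 tested transport genes, 7 had higher and 5 lower means. At 0.05 before adjustment 1 was higher and 2 lower, 25% against 15.8% of all genes. The median log2 fold change was 0.04. The sign of this median turned when libraries were left out, to −0.046 without Amuc_0904 replicate 1 and −0.0025 without Control replicate 3, and array weights gave −0.038.

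**Figure D3:**
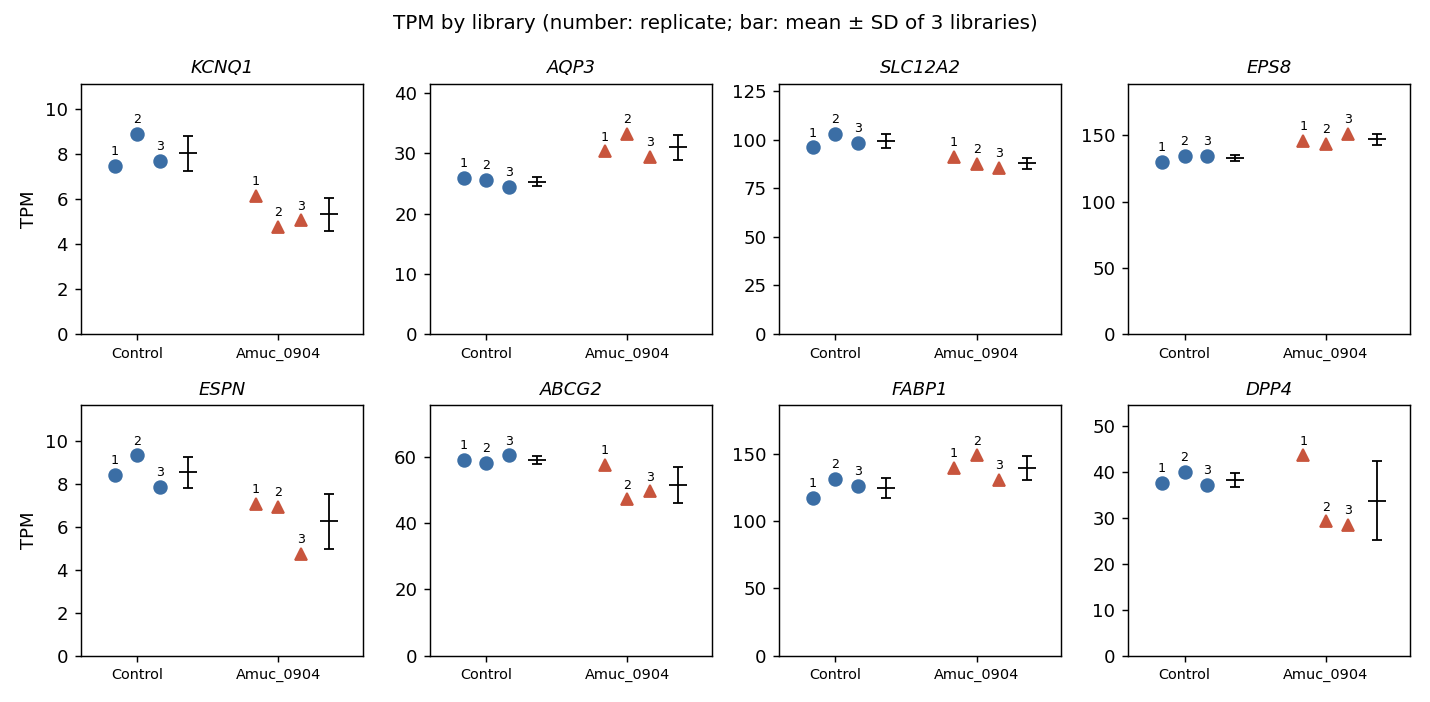
TPM of 8 members by library, numbered by replicate (circles, control; triangles, Amuc_0904), with the mean ± SD of 3 libraries at the right of each group. *KCNQ1*, *SLC12A2*, *ESPN* and *ABCG2* are lower and *AQP3* and *EPS8* higher in all Amuc_0904 libraries; *FABP1* overlaps, and *DPP4* has replicate 1 above and replicates 2 and 3 below the controls.

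Among the other differentiation genes, *ABCG2* had a lower and *FABP1* a higher mean. *ABCG2*, an apical efflux pump for xenobiotics and urate on chromosome 4 from 88090264 to 88231322, had 59.1, 58.1 and 60.5 TPM in the controls and 57.8, 47.2 and 49.6 TPM with Amuc_0904. Replicate 1 lay just under the lowest control, and replicates 2 and 3 were clearly lower (59.2 ± 1.197 against 51.6 ± 5.52; log2 ratio of −0.20 with a standard error of 0.078, limma adjusted p = 0.289). *FABP1*, a fatty acid carrier of the cytosol on chromosome 2 from 88122982 to 88128116, had 116.9, 131.4 and 125.8 TPM in the controls and 139.2, 148.6 and 130.6 TPM with Amuc_0904. The highest control and the lowest treated library of *FABP1* overlapped (log2 ratio of 0.16 with a standard error of 0.067, limma adjusted p = 0.312).
The guanylin genes, neighbors on chromosome 1 that encode the luminal peptides of the GUCY2C receptor, both had higher means at low levels. *GUCA2A*, from 42162691 to 42164718, had 0.73, 1.6 and 0.97 TPM in the controls and 2.04, 3.76 and 1.36 TPM with Amuc_0904. Its log2 ratio of TPM + 1 was 0.65 with a standard error of 0.28 (limma adjusted p = 0.320). *GUCA2B*, from 42153421 to 42155824, had 0.36, 0.47 and 0 TPM in the controls and 0.77, 1.62 and 0.66 TPM with Amuc_0904. Each treated library of *GUCA2B* was above each control, but the gene was under the level for a test, and with all 29705 genes listed above 0 in any library admitted, its adjusted p was 0.537. *SLC16A1*, the monocarboxylate transporter MCT1, had 34.9, 37.9 and 35.5 TPM in the controls and 37.2, 34.7 and 36.3 TPM with Amuc_0904 (log2 fold change 0.0013, 95% interval −0.13 to 0.14), and its sign varied over the alternatives. *ABCB1*, the efflux pump P-glycoprotein, had 0.24, 0.89 and 0.28 TPM in the controls and 0.22 to 0.26 TPM with Amuc_0904.

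Several of these comparisons depended on Amuc_0904 replicate 1. In replicate 1, 16 of the 27 tested members lay above all controls and 5 below, whereas 8 lay above and 13 below in replicate 2, and 4 above and 12 below in replicate 3. Over all tested genes, 42.1% lay above and 16% below the controls in replicate 1, 31.3% and 37.9% in replicate 2, and 30.6% and 39.1% in replicate 3. Against the control mean, the median of the tested members was 0.13 in replicate 1, and −0.05 and −0.04 in replicates 2 and 3, on the log2 scale. Over all tested genes these medians were 0.055, −0.024 and −0.030, so that the members shifted in the same direction as all genes in each treated library. For 4 members, *DPP4*, *KCNE3*, *MYO7B* and *USH1C*, replicate 1 was above and both other Amuc_0904 libraries below all controls, 14.8% of those tested against 10.1% of all genes. For *CDHR5*, *MYO1D* and *SLC4A4* replicate 1 lay within the control range and the other Amuc_0904 libraries below it, 11.1% of those tested against 10.7% of all genes. In the opposite pattern, replicates 2 and 3 were above all controls while replicate 1 was below them for *CA4* (3.7% against 2.57%) and within their range for *ANPEP* (3.7% against 6.8%). The genes of microvillus structure had a median of 0.10 in replicate 1 and of −0.12 and −0.19 in replicates 2 and 3.
Without Amuc_0904 replicate 1, *SLC26A2* was no longer at the level for a test and 26 members remained, of which 7 fell and 2 rose past an adjusted p of 0.05 from limma, 34.6% against 18.8% of all genes (9.51% higher and 9.24% lower). Those that rose were *AQP3* and *EPS8* (log2 fold change 0.30 and 0.15, adjusted p = 0.0292 and 0.0395). Those that fell were *KCNQ1* (−0.61, adjusted p = 0.0102), *MYO7B* (−0.70, adjusted p = 0.0106), *DPP4*, *ABCG2* (−0.29, adjusted p = 0.00859), *MYO1D* (−0.26, adjusted p = 0.0232), *KCNE3* (−0.21, adjusted p = 0.0354) and *SLC12A2* (−0.20, adjusted p = 0.0243). For *KCNQ1*, *SLC12A2*, *ABCG2*, *AQP3* and *EPS8* replicate 1 shared the direction, while for *DPP4*, *MYO7B* and *KCNE3* it had the opposite one. Members that did not pass moved as well, with log2 fold changes of −0.57 for *CDHR5* (adjusted p = 0.111), −0.40 for *SLC4A4* (0.0528), −0.49 for *ESPN* (0.0706), −0.15 for *USH1C* (0.0758), 0.67 for *ANPEP* (0.132) and 0.54 for *CA4* (0.0981). Smaller differences remained for *SLC9A3* (0.07), *ATP1B1* (0.014) and *PLS1* (0.0026). A treated group of 2 libraries remained in this comparison, and what set replicate 1 apart was not tested. On the first principal component, replicate 1 was the treated library nearest the controls, and it was singled out from these same values. Adjusted p values without it are therefore no independent test. Calls over all genes went from 0.237% to 18.8% by this step.

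**Figure D4:**
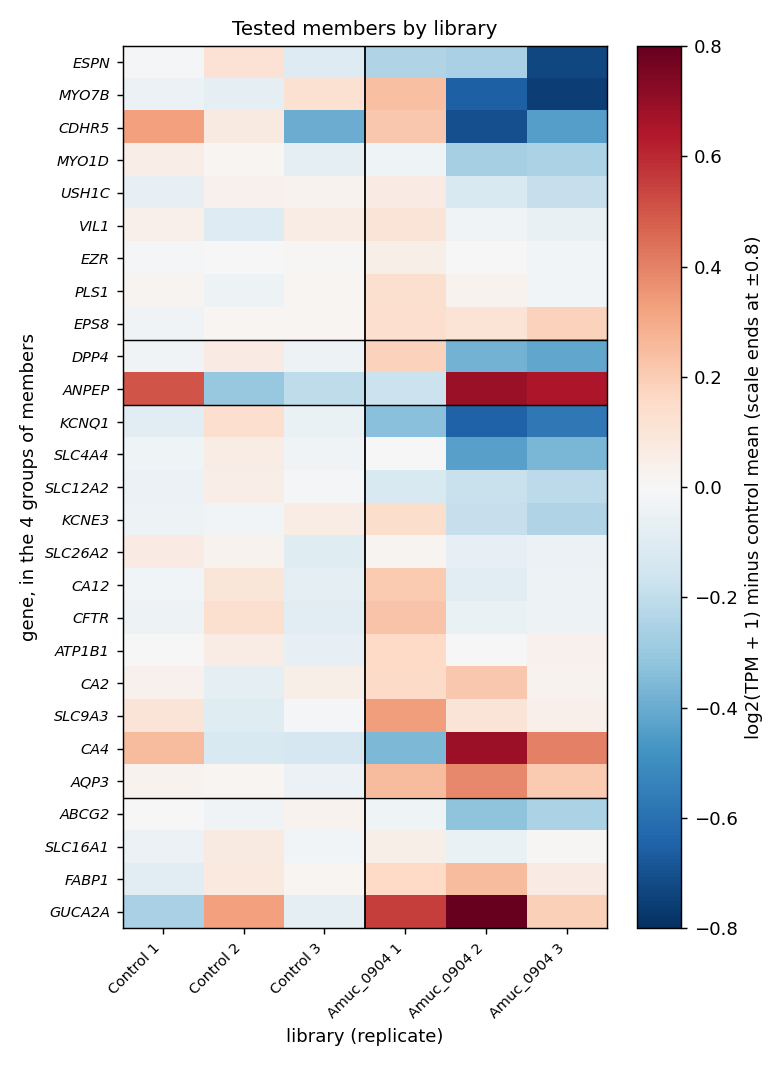
Difference of log2(TPM + 1) from the control mean for the 27 tested members (rows, in the 4 groups) and 6 libraries (columns); red is higher, blue lower, and the scale ends at ±0.8. Amuc_0904 replicate 1 is mostly red, with a median of 0.13, and replicates 2 and 3 hold most of the blue, in *MYO7B*, *CDHR5*, *DPP4* and *KCNQ1* among others.

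Other genes of the brush border and of absorption, 122 in 5 lists, were examined in the same fit, and 76 were tested. Of these, 1 fell and 0 rose past an adjusted p of 0.05 from limma, while 9 were higher and 10 lower at 0.05 before adjustment, 25% of those tested against 15.8% of all genes. The gene that fell was *CEACAM7*, an adhesion molecule on the apical face of differentiated colonocytes. Its TPM was 8.64, 9.16 and 7.28 in the controls and 1.33, 1.94 and 1.87 with Amuc_0904. The level was low in each treated library (8.36 ± 0.971 against 1.71 ± 0.334 TPM). On log2(TPM + 1) the difference was −1.79 with a standard error of 0.13 (limma adjusted p = 0.00322). *CEACAM7* passed in 15 of 15 alternatives, with limma adjusted p values up to 0.0444, and may share reads with its relatives in the CEACAM family. *PHGR1*, a small protein of intestinal epithelium, had 65.9, 73.4 and 83.6 TPM in the controls and 105.9, 153.3 and 149.0 TPM with Amuc_0904. The groups of *PHGR1* did not overlap (log2 fold change 0.85, adjusted p = 0.136), and it passed in 3 of 15 alternatives. Both genes belong to the list of other absorptive lineage genes, of which 15 were tested. At 0.05 before adjustment, 2 of these were higher and 4 lower, 40% against 15.8% of all genes, with a median of −0.061. Without Amuc_0904 replicate 1, 3 of 14 rose and 5 fell past an adjusted p of 0.05 from limma, 57.1% against 18.8% of all genes.
Among 24 other tested transporters, *ATP1B3*, another beta subunit of the sodium pump, had 41.5 to 42.6 TPM in the controls and 46.1 to 50.8 TPM with Amuc_0904 (adjusted p = 0.232). *SLC16A3*, the lactate exporter MCT4, had 35.6 to 42.4 and 28.0 to 34.0 TPM (adjusted p = 0.232). Neither pair of groups overlapped. The median of these 24 genes was −0.13, and 4 were higher and 5 lower at 0.05 before adjustment, 37.5% against 15.8% of all genes. Of 24 other microvillus genes (median −0.019), 1 was higher and 0 lower at 0.05 before adjustment, 4.17% against 15.8% of all genes. The former was *ANKS4B*, a partner of USH1C and MYO7B (8.96 ± 0.225 against 10.4 ± 0.501 TPM, adjusted p = 0.285), and *IQGAP2*, a cytoskeletal scaffold, had an adjusted p of 0.358. In the list of 17 other hydrolases, 15 were under the level for a test. The surface enzyme *GGT1*, a gamma-glutamyltransferase, and *CDA*, a cytidine deaminase that is cytosolic and not a surface enzyme, had adjusted p values of 0.887 and 0.270.
The list of 15 regulators of the absorptive lineage holds transcription factors and the secreted ligand *BMP2*. *GATA4* and *MAF* were at 0 in all 6 libraries, *CDX1* and *PRDM1* were under the level for a test, and 11 were tested. Of these, 1 was higher and 1 lower at 0.05 before adjustment, *PPARG* (91.8 ± 1.76 against 101.2 ± 2.79 TPM, adjusted p = 0.258) and *ELF3* (170.4 ± 3.72 against 150.3 ± 9.72 TPM, adjusted p = 0.249). Together these were 18.2% of those tested, against 15.8% of all genes. The group had a median of 0.03.
Markers of other cells were read as levels only. The 6 epithelial markers summed to 6360 to 6374 TPM in the controls, and to 6314, 7039 and 7045 TPM in replicates 1, 2 and 3 of Amuc_0904. *KRT8* and *KRT18* carried most of this sum and were above all controls in replicates 2 and 3. *EPCAM*, *CDH1* and *CLDN7* were below all controls in both of these replicates. *KRT19* was above the controls in replicate 2 and below them in replicate 3. The 5 stem cell markers summed to 31.7 to 32.1 TPM in the controls, and to 31.1, 34.6 and 35.9 TPM in replicates 1, 2 and 3 of Amuc_0904. *AXIN2* carried most of this sum, with 28.4 to 28.9 TPM in the controls and 27.7, 31.4 and 32.5 TPM with Amuc_0904. *LGR5* and *ASCL2* overlapped (log2 fold change −0.016 and 0.0055), and *OLFM4* and *SMOC2* did not exceed 0.09 TPM. The 8 goblet cell markers summed to 19.0 to 22.2 TPM in the controls and 24.0 to 28.0 TPM with Amuc_0904, but did not move together. *TFF3* and *SPDEF* had higher means. *ATOH1* was higher in each treated library (1.72 to 2.07 against 2.22 to 2.65 TPM, limma adjusted p = 0.327), as was *ZG16* (0.20 to 0.28 against 0.35 to 0.56 TPM). *SPINK4* was lower in each treated library (2.02 to 2.41 against 0.82 to 1.98 TPM, limma adjusted p = 0.282), as was *FCGBP* (0.45 to 0.58 against 0.34 to 0.38 TPM). *MUC2* overlapped at 0.41 to 0.73 TPM, and *CLCA1* did not exceed 0.02 TPM.
The 6 enteroendocrine markers summed to 1.19 to 2.18 TPM, with *NEUROD1* at 0, and the 6 stromal and endothelial markers to 1.88 to 3.08 TPM, with *COL1A2* at 0. Of 6 leukocyte markers, *CD3E* was at 0, and *PTPRC* and *HLA-DRA* had group means of at most 0.02 TPM. *LYZ*, which intestinal epithelium also expresses, carried nearly all of the sum of 2489 to 2708 TPM. *CD68* had 8.13 to 13.8 TPM, and *CD14* was lower in each treated library, with 4.65 to 4.76 TPM in the controls and 1.89 to 2.85 TPM with Amuc_0904 (log2 fold change −0.72, adjusted p = 0.150). The part of these markers in the members' values was not tested.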

How the data were processed

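RNA-seq of 6 HT−29 libraries, 3 control and 3 Amuc_0904, was analysed. The deposited file holds TPM per gene, as the authors computed it from paired-end reads trimmed with SeqPrep and Sickle. The submitters' processing notes name HISAT2, StringTie, RSEM and edgeR, without versions or roles, and the mouse build GRCm38.p6, although the gene identifiers are human. The human build is not given in the sources used here. Lines that carried over description text and no values (25) were skipped. Without counts, depth and counting precision are unknown.
The test took all genes that reached 1 TPM in 3 or more libraries, as log2(TPM + 1), a scale that understates changes of low genes, with limma 3.58.1 in R 4.3.3 (mean-variance trend, robust empirical Bayes, with no term besides condition) and Benjamini-Hochberg adjustment across these genes, at a threshold of 0.05. An exact permutation test of 3 against 3 libraries cannot give a p below 0.1 and was not used. The script was tested on simulated data. The rule for the members uses no measured value, but members, lists and tests were chosen with earlier results of these data known. Values per library are given for members past an unadjusted p under 0.05, for the 4 of smallest p and the 2 of highest level in each group, and for other members as singled out after their values were seen. Of the other genes, those past the adjusted p and the 2 of smallest p per list are named. Gene positions are those of GENCODE release 29 on GRCh38, matched by identifier (58228 of 63241 identifiers matched); the annotation used for the file may differ. Promoters are RefSeq sequences on GRCh38.p14. Replicate numbers were not used to pair the libraries, since neither the labels nor the paper pair them. The deviations of same-numbered libraries correlated by 0.046, −0.039 and −0.0047, which cannot show whether they were handled together. The alternatives were 15, among them other pseudocounts, filters, scalings, array weights, a replicate block and each library left out.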

Additional observations from a re-analysis of the deposited data

How the results depend on the processing

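Of 539 values of single genes over 15 alternatives, 488 kept their sign and their side of the adjusted p of 0.05, 30 passed where the reported value did not, and 21 had the other sign, none of them called. The members rose in 0 and fell in 0 cases under all alternatives except array weights (2 rose and 6 fell) and leaving out Amuc_0904 replicate 1. Over the libraries left out, 0 to 2 members rose and 0 to 7 fell, and 0 to 9 other pathway genes rose and 1 to 20 fell (7 and 17 with array weights, and 1 rose with the replicate block). The replicate block, with numbers that are not known to pair the libraries, changed no call of a member.
Of all genes, 3 rose and 15 fell without the filter, 6 rose with median-of-ratios scaling, 1315 rose and 1056 fell with array weights, which gave Amuc_0904 replicate 1 a weight of 0.224, and 5 rose with the replicate block. With single libraries left out, 1 to 1339 genes rose and 6 to 1301 fell. Without Control replicates 1, 2 and 3, 3 rose each time, and 6, 6 and 7 fell. Without Amuc_0904 replicate 2 or 3, 1 rose.
The median of the hydrolases was 0.27 at a pseudocount of 0.1, −0.20 at a filter of 5 TPM, where *DPP4* alone was tested, and −0.22 to 0.14 with single libraries left out. That of the other differentiation genes was −0.0086 without the filter and 0.0013 at 5 TPM. The median of all members went from −0.043 to 0.017 with single libraries left out and was −0.018 without mitochondrial transcripts and −0.029 with array weights. That of the transport genes went from −0.046 to 0.091, and that of the microvillus genes from −0.15 to −0.030, with −0.0065 without the filter. The cause of each other change was not tested.
Signs of single genes changed as follows. Without mitochondrial transcripts, *VIL1*, *EZR* and *SLC16A1* had −0.018, −0.015 and −0.023. With array weights, *VIL1*, *EZR*, *CA12*, *CFTR* and *SLC16A1* had −0.028, −0.0041, −0.047, −0.029 and −0.019. With median-of-ratios scaling *SLC16A1* had −0.0042. With single libraries left out, *VIL1* went from −0.046 to 0.038, *EZR* from −0.0090 to 0.025, *CA12* from −0.063 to 0.084, *CFTR* from −0.046 to 0.11, *SLC16A1* from −0.022 to 0.036 and *GGT1* from −0.22 to 0.067. No counts were given, so what depth limits could not be assessed, and values under 1 TPM were read as levels only.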
